A study of Homo sapiens with 16 samples.

Results

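The genes described here carry the signals of interleukin 6 (IL6) and of insulin-like growth factor 1 (IGF1). They are the 10 rows of the count table with the symbols IL6R, IL6ST, STAT3, SOCS1, SOCS3, IGF1R, INSR, IRS1, IRS2 and PIM2, out of 23354 genes in all, and all 10 were among the 14215 genes that passed the filter on low counts. They were read in 16 RNA-seq libraries from a pair of human multiple myeloma cell lines, the glucocorticoid sensitive MM1S and the glucocorticoid resistant MM1R. Each line was kept for 48 h in vehicle, in TAK-981 at 0.1 μM, in dexamethasone (Dex) at 1 μM or in both drugs at these doses (combo). TAK-981 inhibits the enzyme that activates SUMO, a small protein joined to other proteins, and Dex is a synthetic glucocorticoid. Each of the 8 groups had 2 libraries. The labels name them as duplicates and do not say whether they came from separate cultures, so the p-values measure the spread between these libraries, which may be technical. Each line is 1 line, so a difference between MM1S and MM1R is a difference between these cultures and not between sensitive and resistant disease.

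IL6 and IGF1 are growth and survival factors of myeloma cells. IL6 binds its receptor chain IL6R, which then joins the shared signalling chain encoded by IL6ST. Janus kinases on that chain phosphorylate STAT3, a transcription factor, and STAT3 induces SOCS1 and SOCS3, which inhibit the same kinases. IGF1 binds the tyrosine kinase IGF1R, a close relative of the insulin receptor INSR. Both phosphorylate the adaptors IRS1 and IRS2, which recruit phosphoinositide 3-kinase and so activate AKT. PIM2 is a serine/threonine kinase induced by cytokine signals that promotes survival and translation, and it is known for its high level in myeloma.

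The libraries held 15707587 to 20644510 counts in MM1S and 18987739 to 24796539 in MM1R. All 11 of the plasma cell markers found in the table were expressed, with a summed level of 4910 to 11080 CPM (counts for every 1000000 counts of a library). The summed levels were 16.5 to 36.9 CPM for B cell markers (mostly CD79B, with MS4A1 and CD22 at no more than 3 counts in any library), 2.04 to 6.24 CPM for T and NK cell markers, 15.1 to 38.4 CPM for monocyte markers (mostly CD68) and 0.454 to 3.90 CPM for stromal markers. NR3C1, the glucocorticoid receptor, averaged 280 CPM in MM1S and 18.9 CPM in MM1R under vehicle. FKBP5, a classical glucocorticoid target, rose with Dex by 4.60 ± 0.06 (SE) on the log2 scale in MM1S and changed by 0.02 ± 0.06 in MM1R. The paired libraries of the TAK-981 and Dex groups of MM1S lay farthest apart over all genes (chi-square per degree of freedom 22.6 and 20.4, against 2.15 to 9.66 in the other 6 groups), and results that rest on 1 of them are given without it.

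Per unit of transcript length, PIM2 was the highest of the 10 genes in untreated cells and SOCS3 the lowest. In MM1S under vehicle the mean RPKM, which is CPM divided by the gene length in kilobases, was 685 for PIM2, 109 for IL6R, 88.3 for IL6ST, 22.6 for INSR, 17.1 for STAT3, 15.7 for IGF1R, 11.98 for IRS1, 10.3 for IRS2, 2.66 for SOCS1 and 0.107 for SOCS3. STAT3 and IGF1R were the only neighbours in that order whose libraries overlapped. PIM2 stood above 99.8% of the genes tested, IL6R above 97.4%, and SOCS3 above 5.07%. In MM1R the order was the same except that IRS2, at 9.02 RPKM, stood above IRS1, at 7.25 RPKM, with no overlap. In the table's hg19 positions the genes of the largest changes are IL6ST at chr5:55230925-55290821, INSR at chr19:7112266-7294011, IRS1 at chr2:227596033-227663506 and SOCS1 at chr16:11348274-11350039, all on the minus strand, and PIM2 at chrX:48770459-48776413, also minus. SOCS3 had between 2 and 17 counts in any library, so that only large changes in it were detectable at this depth.

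Promoter windows are shown for the 3 members with a Dex response above 1 on the log2 scale in MM1S. Each is 300 bases around the gene's RefSeq start site, from the GRCh38.p14 assembly, read 5′ to 3′ on the gene's own strand. The only capitals mark a pair of GAAA repeats with 2 bases between them, the core bound by interferon regulatory factors, in the SOCS1 window.
IL6ST, chr5:55994914-55995213, minus strand: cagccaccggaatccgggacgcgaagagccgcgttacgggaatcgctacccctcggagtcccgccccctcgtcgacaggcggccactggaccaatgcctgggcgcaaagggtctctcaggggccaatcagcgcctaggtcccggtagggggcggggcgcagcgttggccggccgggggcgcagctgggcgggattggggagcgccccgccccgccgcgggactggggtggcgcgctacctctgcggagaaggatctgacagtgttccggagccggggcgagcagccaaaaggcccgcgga
INSR, chr19:7294365-7294664, minus strand: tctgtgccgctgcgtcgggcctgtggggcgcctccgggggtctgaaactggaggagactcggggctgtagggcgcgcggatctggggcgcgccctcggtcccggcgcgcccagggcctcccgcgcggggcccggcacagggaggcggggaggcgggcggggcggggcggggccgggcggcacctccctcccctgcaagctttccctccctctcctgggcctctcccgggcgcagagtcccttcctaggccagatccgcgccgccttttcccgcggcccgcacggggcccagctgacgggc
SOCS1, chr16:11256155-11256454, minus strand: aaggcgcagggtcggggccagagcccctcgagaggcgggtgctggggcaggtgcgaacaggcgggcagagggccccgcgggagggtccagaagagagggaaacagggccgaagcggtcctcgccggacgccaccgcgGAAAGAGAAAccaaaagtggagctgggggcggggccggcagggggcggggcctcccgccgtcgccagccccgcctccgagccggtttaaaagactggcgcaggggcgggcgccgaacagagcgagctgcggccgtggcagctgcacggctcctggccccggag

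All 10 members had a window, SOCS3 2 of them. Both strands were searched for 6 motifs, counted over the 35116 windows of the same length in the table. The interferon regulatory factor core was in 3.57% of all windows and, among the members, in SOCS1 alone, 113 bases before the start site. This motif was chosen after the SOCS1 window had been read. The glucocorticoid receptor hexamer AGAACA was in 14.8% of all windows and in that of IL6R, and the E box CACGTG in 7.26% and in that of IRS1. No member window held the palindromic glucocorticoid element, which is AGAACA and its reverse complement with 3 bases between them (0.00285% of all windows), the STAT core TTCNNNGAA (7.66%) or the FOXO core GTAAACA (3.42%), which says only that these letters are not in these windows. The hexamer lies within the palindromic element.

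**Figure D1:**
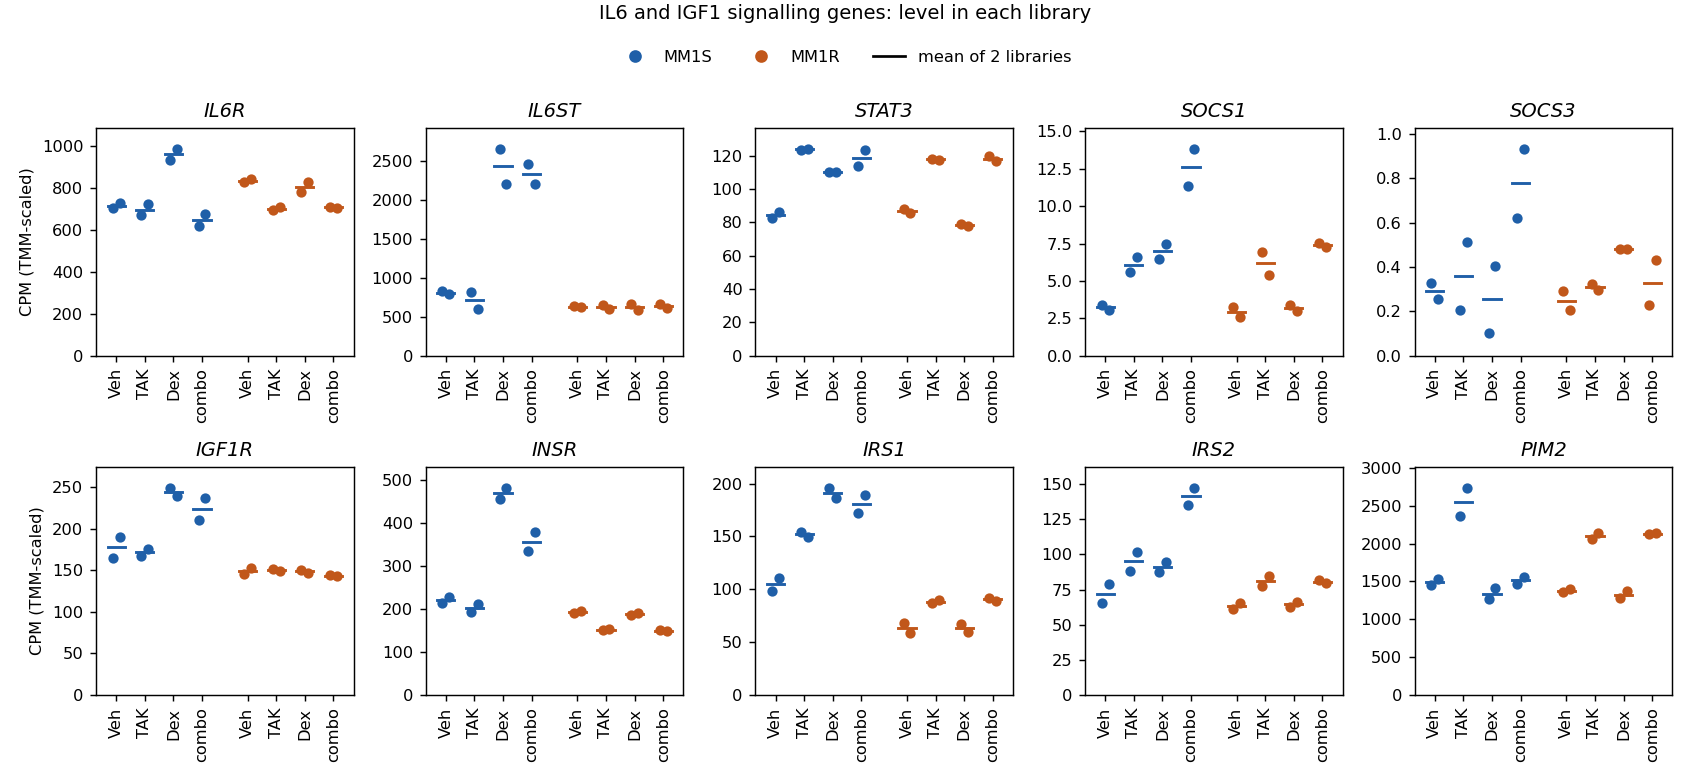
Level of each gene in every library, in CPM scaled by TMM (vertical axis, from 0), for the 4 treatments of MM1S (blue) and MM1R (orange); points are libraries and lines the mean of 2. IL6ST stood at 2207 CPM or more in all 4 MM1S libraries that had Dex and at 832 CPM or less in every other library.

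Dex raised the receptor and adaptor genes of both pathways in MM1S. By the quasi-likelihood test of edgeR, adjusted by Benjamini-Hochberg over every gene tested, 8 of the 10 members were higher with Dex than with vehicle and 0 were lower, where 20.8% of all genes tested were higher, 21.5% lower and 42.3% changed either way. IL6ST, the shared chain, had 832 and 786 CPM under vehicle and 2662 and 2211 CPM under Dex. Both Dex libraries were far above both vehicle libraries, a rise of 3.01-fold (log2 1.59 ± 0.12, SE, adjusted p = 8.57e-08). IL6R, the ligand-binding chain, had 704 and 730 CPM under vehicle and 935 and 989 CPM under Dex, a smaller rise of 1.34-fold (log2 0.42 ± 0.06, adjusted p = 1.11e-05). In bulk RNA more RNA per cell and more cells that express the gene cannot be told apart.

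On the IGF1 side, INSR rose more than IGF1R. INSR had 213 and 229 CPM under vehicle and 456 and 481 CPM under Dex, 2.12-fold higher (log2 1.09 ± 0.07, adjusted p = 3.48e-10). IGF1R had 165 and 190 CPM under vehicle and 249 and 239 CPM under Dex, 1.38-fold higher (log2 0.46 ± 0.07, adjusted p = 3.12e-05). The groups overlapped in neither gene. IRS1, the adaptor, went from 98.7 and 111 CPM to 196 and 186 CPM, 1.83-fold higher (log2 0.87 ± 0.08, adjusted p = 4.69e-08). IRS2, the other adaptor, went from 65.5 and 78.6 CPM to 87.5 and 94.4 CPM, 1.26-fold higher (log2 0.34 ± 0.09, adjusted p = 0.00440). Of these 8 calls, that of IRS2 was the only one lost when a library was left out: without the first vehicle library its log2 change was 0.21 (adjusted p = 0.1202).

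The transcription factor and 1 of the inhibitors rose as well. STAT3 had 82.8 and 86.3 CPM under vehicle and 110 CPM in both Dex libraries (log2 0.38 ± 0.06, adjusted p = 2.98e-05). SOCS1 had 3.38 and 3.08 CPM under vehicle and 6.48 and 7.46 CPM under Dex (log2 1.11 ± 0.18, adjusted p = 5.12e-05). Its Dex libraries held 125 and 148 counts and its vehicle libraries 72 and 60, the fewest of any member but SOCS3. SOCS3 had 7 and 5 counts under vehicle and 2 and 8 under Dex, and its groups overlapped. PIM2, the kinase, had 1453 and 1533 CPM under vehicle and 1265 and 1412 CPM under Dex, a log2 difference of −0.16 ± 0.07 that missed the threshold (adjusted p = 0.0750; 95% interval −0.30 to −0.01) and passed it without the second Dex library (adjusted p = 0.00757).

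In MM1R none of the 10 passed the test with Dex, and neither did any other gene (0% of those tested). STAT3 was the 1 member with an unadjusted p under 0.05 in the edgeR test (log2 −0.14 ± 0.06, with 88.1 and 85.4 CPM under vehicle and 79.3 and 78.0 CPM under Dex), and DESeq2 also called 0 members. IL6ST lay between 588 and 669 CPM in all 8 MM1R libraries, whatever the treatment. Its log2 change with Dex was −0.0022 with a 95% interval of −0.26 to 0.25.

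The difference between the lines in the response to Dex was tested as an interaction. It was called for 7 of the 10 members, all with a negative difference (MM1R minus MM1S). Of all genes tested 28.1% were called, 13.1% with a negative difference and 15.0% with a positive one. The sign alone does not say which line had the larger response, since a fall in MM1S alone also gives a positive difference. The difference, MM1R minus MM1S on the log2 scale, was −1.59 ± 0.17 for IL6ST (adjusted p = 6.35e-06), −1.12 ± 0.09 for INSR (adjusted p = 6.55e-08), −0.97 ± 0.26 for SOCS1 (adjusted p = 0.00982) and −0.87 ± 0.11 for IRS1 (adjusted p = 1.04e-05). STAT3, IL6R and IGF1R differed by −0.53, −0.48 and −0.46. IRS2 missed the threshold (−0.31 ± 0.12, adjusted p = 0.0733), and it passed without the second vehicle library of MM1S. The SOCS1 call was lost without the first vehicle library of MM1R (−0.79, adjusted p = 0.0732). The log2 difference of NR3C1, MM1R minus MM1S under vehicle, was −3.88 ± 0.08, and its part in these differences was not tested.

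**Figure D2:**
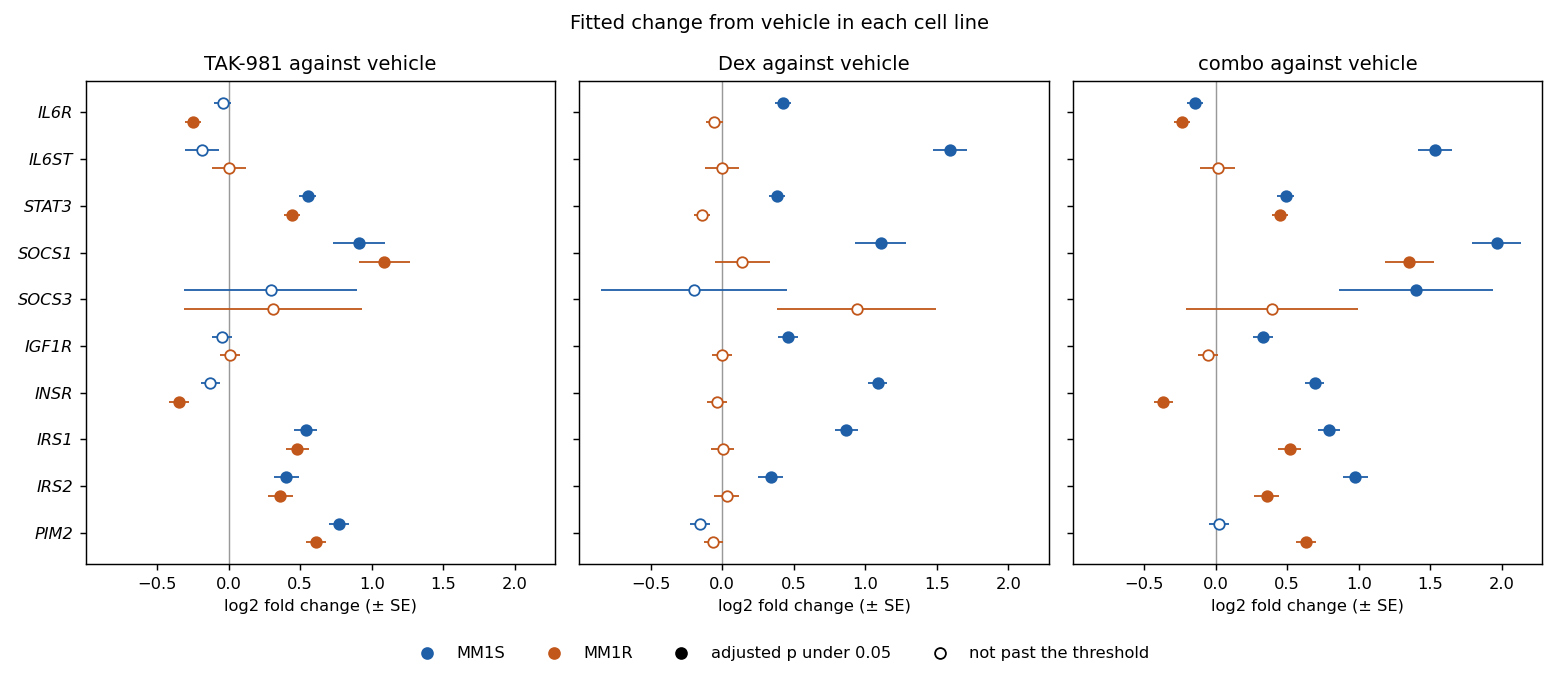
Log2 fold change of each gene from vehicle under TAK-981, Dex and combo in MM1S (blue) and MM1R (orange), with standard errors; filled points passed an adjusted p of 0.05. In the Dex panel 8 MM1S points and 0 MM1R points are filled, while in the TAK-981 panel STAT3, SOCS1, IRS1, IRS2 and PIM2 are filled in both lines.

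The members that rose with TAK-981 were, in both lines, the transcription factor STAT3, the inhibitor SOCS1, both adaptors and the kinase PIM2. In MM1S 5 of the 10 members were higher than with vehicle and 0 lower, where 25.2% of all genes tested were higher, 23.7% lower and 49.0% changed either way. In MM1R 5 were higher and 2 lower, where 25.8% were higher, 27.6% lower and 53.4% changed either way. The members called in either direction, 5 and 7 of 10, are thus a share near that of all genes in MM1S and not far above it in MM1R. The treatments of a line share their vehicle libraries.

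PIM2 was higher with TAK-981 in both lines. In MM1S it had 1453 and 1533 CPM under vehicle and 2365 and 2738 CPM under TAK-981, 1.71-fold higher (log2 0.77 ± 0.07, adjusted p = 3.38e-08). In MM1R it had 1362 and 1397 CPM under vehicle and 2064 and 2142 CPM under TAK-981, 1.52-fold higher (log2 0.61 ± 0.07, adjusted p = 7.90e-07). SOCS1 had 5.60 and 6.59 CPM with TAK-981 in MM1S (log2 0.91 ± 0.18, adjusted p = 0.000353). In MM1R it went from 3.23 and 2.56 CPM to 6.93 and 5.42 CPM (log2 1.09 ± 0.18, adjusted p = 4.89e-05). Its groups did not overlap in either line.

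SOCS1 lies within the span of RMI2, a gene on the opposite strand, and whether the counting used strand is not given in the sources used here. RMI2 moved the other way with TAK-981, from 20.4 and 20.5 CPM to 9.60 and 9.57 CPM in MM1S (log2 −1.09 ± 0.14, adjusted p = 2.15e-06) and from 22.6 and 25.4 CPM to 12.99 and 13.99 CPM in MM1R (log2 −0.83 ± 0.13, adjusted p = 2.22e-05). It was chosen after its values were seen. The other genes that overlap members in the table, apart from RMI2, had at most 52 counts in a library.

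STAT3 rose with TAK-981 from 82.8 and 86.3 CPM to 124 CPM in both libraries in MM1S (log2 0.55 ± 0.06, adjusted p = 2.66e-07). In MM1R it rose from 88.1 and 85.4 CPM to 118 CPM in both (log2 0.44 ± 0.06, adjusted p = 3.96e-06). IRS1 rose by 0.54 ± 0.08 on the log2 scale with TAK-981 in the MM1S cells (adjusted p = 1.44e-05) and by 0.48 ± 0.08 in the MM1R cells (adjusted p = 6.49e-05), and IRS2 by 0.40 ± 0.09 and 0.36 ± 0.09 (adjusted p = 0.000895 and 0.00208). None of these 3 genes was called for a difference between the lines in this response.

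No receptor gene was called higher with TAK-981. IL6R fell in MM1R, from 827 and 843 CPM to 694 and 710 CPM (log2 −0.25 ± 0.06, adjusted p = 0.00153), and so did INSR, from 190 and 196 CPM to 150 and 153 CPM (log2 −0.35 ± 0.07, adjusted p = 0.000315). In MM1S the same 2 genes were at −0.04 ± 0.06 (adjusted p = 0.596) and −0.13 ± 0.07 (adjusted p = 0.124), and INSR passed the test there without the second TAK-981 library (adjusted p = 0.0223). IGF1R was at −0.05 in MM1S (95% interval −0.20 to 0.10) and 0.01 in MM1R (−0.14 to 0.16). IL6ST in MM1S had 818 and 603 CPM with TAK-981, the widest ratio between paired libraries for this gene. Its log2 difference of −0.19 ± 0.12 missed the threshold (adjusted p = 0.215) and became −0.43 without the first of these libraries (adjusted p = 0.00265).

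The test of the difference between the lines in the response to TAK-981 called 0 of the 10 members. Of all genes tested 4.16% were called, 3.19% with a positive difference (MM1R minus MM1S) and 0.978% with a negative one. Among the members 2 had an unadjusted p under 0.05, IL6R (difference −0.21 ± 0.08) and INSR (−0.22 ± 0.10), and DESeq2 called 0. For IL6R, IL6ST and INSR this result was not stable to leaving out the first TAK-981 library of MM1S.

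In MM1S the combo left IL6ST at the level seen with Dex, and SOCS1 and IRS2 were at their highest. Against vehicle 8 of the 10 members were higher and 1 lower, where 30.8% of all genes tested were higher, 29.5% lower and 60.3% changed either way. SOCS1 had 11.3 and 13.9 CPM with the combo, above every library of the other 7 groups and 3.90-fold the vehicle level (log2 1.96 ± 0.17, adjusted p = 6.18e-09). IRS2 had 135 and 147 CPM, also above every other library and 1.96-fold the vehicle level (log2 0.97 ± 0.09, adjusted p = 1.66e-08). IL6ST, at 2468 and 2207 CPM, lay in the range of the Dex libraries (combo minus Dex log2 −0.06, 95% interval −0.32 to 0.20).

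Other members did not keep with the combo the full change seen with a single drug. PIM2 had 1467 and 1564 CPM with the combo, near its vehicle level (log2 0.02, 95% interval −0.12 to 0.17) and −40.6% from its level with TAK-981 alone (log2 −0.75 ± 0.07, adjusted p = 8.32e-08). IL6R had 617 and 679 CPM, −32.6% from its Dex level (log2 −0.57 ± 0.06, adjusted p = 2.66e-07). Against vehicle IL6R was the 1 member lower (log2 −0.15 ± 0.06, adjusted p = 0.0393), a call lost without either vehicle library or without the first combo library (adjusted p = 0.0579 to 0.311). INSR had 334 and 379 CPM, between its vehicle and Dex levels and −23.9% from its level with Dex alone (log2 −0.39 ± 0.07, adjusted p = 8.94e-05). It was still called higher than vehicle (log2 0.69).

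Across the members, 7 of the 10 differed between combo and TAK-981 (6 higher, 1 lower; background 14.5% higher, 20.6% lower, 35.1% either way). Between combo and Dex 6 differed (4 higher, 2 lower; background 22.2% higher, 25.4% lower, 47.6% either way). SOCS3 had 10 and 17 counts with the combo and was called higher than vehicle (adjusted p = 0.0238) and than Dex (adjusted p = 0.0188). By DESeq2 neither passed (adjusted p = 0.119 and 0.0965), and both calls were lost without the second combo library, the former also without either vehicle library and the latter without the first Dex library. The PIM2 difference between combo and Dex (log2 0.18 ± 0.07, adjusted p = 0.0401) was lost by DESeq2 (adjusted p = 0.0562), with RLE size factors (adjusted p = 0.0511), in the fit of only the groups compared (adjusted p = 0.136) and without the first Dex or the second combo library.

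The combo was also compared with the sum of both single-drug changes, as an interaction on the log2 scale. In MM1S the combo was called below the sum for 4 members and above it for 0. Of all genes tested 9.48% were below the sum, 5.47% above it and 14.9% called either way. Below and above are by sign, whichever way the sum itself went. IRS1 was 0.79 against a sum of 1.41 (difference −0.61 ± 0.11, adjusted p = 0.00103), and it stood at 173 and 190 CPM with the combo against 196 and 186 CPM with Dex alone. PIM2 was 0.02 against a sum of 0.62 (difference −0.59 ± 0.10, adjusted p = 0.000514). IL6R was −0.15 against 0.38 (difference −0.53 ± 0.08, adjusted p = 0.000332), and STAT3 0.49 against 0.94 (difference −0.45 ± 0.08, adjusted p = 0.00125).

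SOCS1 and IL6ST lay close to the sum. SOCS1 was 1.96 against 2.02 (difference −0.06, 95% interval −0.55 to 0.43) and IL6ST 1.53 against 1.40 (difference 0.13, 95% interval −0.23 to 0.49), intervals wide enough to hold a sizeable departure. INSR missed the threshold (difference −0.27 ± 0.09, adjusted p = 0.0666), and passed it without the first TAK-981, the first Dex or the second combo library.

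**Figure D3:**
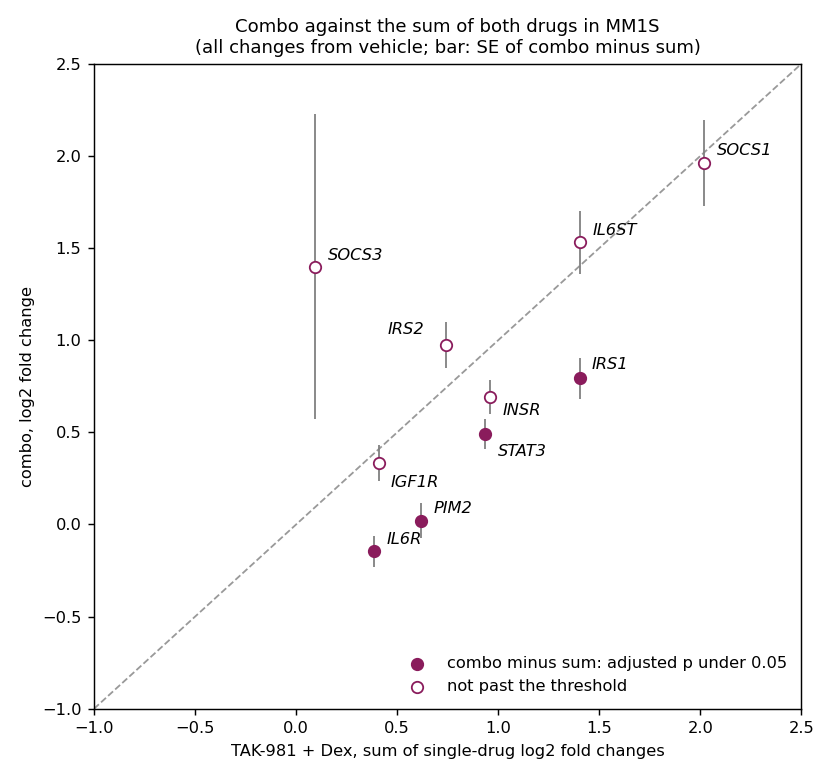
Log2 fold change with the combo (vertical) against the sum of the log2 fold changes with TAK-981 and with Dex (horizontal) in MM1S, all from vehicle; bars are the standard error of their difference, the dashed line is equality and filled points passed an adjusted p of 0.05. The 4 filled points, IL6R, STAT3, IRS1 and PIM2, lie below the line, and SOCS1 and IL6ST lie near it.

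In MM1R the combo libraries lay close to the TAK-981 libraries. Against vehicle 5 members were higher and 2 lower (background 24.8% higher, 26.7% lower, 51.5% either way), and against Dex also 5 and 2 (background 23.1% higher, 25.3% lower, 48.4% either way). SOCS1 had 7.52 and 7.27 CPM (log2 1.35 ± 0.17 from vehicle, adjusted p = 2.66e-06), PIM2 2130 and 2135 CPM (log2 0.63 ± 0.07, adjusted p = 5.68e-07) and INSR 150 and 149 CPM (log2 −0.37 ± 0.07, adjusted p = 0.000184). Against TAK-981 alone, 0 of 10 members were called and 0% of all genes tested, with 0 members at an unadjusted p under 0.05 and 0 by DESeq2. The interaction of the drugs in MM1R likewise called 0 members and 0% of all genes tested by edgeR, with 0 members at an unadjusted p under 0.05 and 0 by DESeq2. The largest difference between combo and TAK-981 among members above the SOCS3 range was that of SOCS1 (log2 0.27, 95% interval −0.06 to 0.59).

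Untreated, MM1R differed from MM1S in 5 members, 1 higher and 4 lower, where 25.6% of all genes tested were higher, 22.6% lower and 48.2% changed either way. IRS1 was lower, at 67.8 and 59.0 CPM in MM1R and 98.7 and 111 CPM in MM1S (log2 −0.72 ± 0.08, adjusted p = 8.63e-07). IL6R was higher, at 827 and 843 CPM against 704 and 730 CPM (log2 0.22 ± 0.06, adjusted p = 0.00455). The calls of IL6ST (log2 −0.36, adjusted p = 0.0220), IGF1R (log2 −0.25, adjusted p = 0.00620) and INSR (log2 −0.20, adjusted p = 0.0215) were not stable to leaving out a vehicle library. That of IL6ST was lost without the first MM1S or either MM1R library, that of IGF1R without the second MM1S or the first MM1R library, and that of INSR without the second MM1S or either MM1R library.

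The ligands were read in the same libraries and were chosen for mention after their values were seen. IL6 itself had 1 to 8 counts in every library and did not pass the filter. IGF1 was expressed by the cells. It had 113 and 97.4 CPM in MM1S under vehicle, 160 and 132 CPM with TAK-981, 139 and 129 CPM with Dex and 176 and 184 CPM with the combo. All of these treated libraries stood above both vehicle libraries (log2 0.47 ± 0.09, 0.35 ± 0.09 and 0.77 ± 0.09, adjusted p = 0.000222, 0.00365 and 4.52e-07). In MM1R it started lower, at 53.5 and 53.2 CPM, and rose with TAK-981 to 103 and 95.4 CPM (log2 0.89 ± 0.09, adjusted p = 2.29e-07), while Dex gave 58.8 and 53.7 CPM.

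Other genes of these pathways were counted in 5 lists. Over all genes tested, 25.2% rose and 23.7% fell with TAK-981 in MM1S, 25.8% rose and 27.6% fell with TAK-981 in MM1R, and 20.8% rose and 21.5% fell with Dex in MM1S, or 49.0%, 53.4% and 42.3% called in either direction. Of 33 tested genes (of 37 listed) of other IL6 family receptors, JAK, STAT and feedback proteins, 11 rose and 6 fell with TAK-981 in MM1S, and 12 rose and 6 fell in MM1R (median log2 −0.01 and 0.14, against 0.04 and 0.0043 over all genes). Fewer of the 33 were called with TAK-981 in MM1S without either vehicle library of that line. The share of all genes called in those fits is not given here. The 51.5% and 54.5% of the list called were near the share of all genes. With Dex in MM1S 7 rose and 6 fell (39.4% called, median log2 0.07 against 0.01 over all genes), also near the share of all genes. GAB1, a docking protein downstream of both receptor families, had 222 and 221 CPM under vehicle and 450 and 374 CPM under Dex (log2 0.90 ± 0.10, adjusted p = 2.86e-06). ADAM10, a protease that sheds IL6R, fell by 0.58 ± 0.06 on the log2 scale (adjusted p = 4.24e-07).

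Of 18 tested STAT3 target genes (of 19 listed), 10 rose and 5 fell with TAK-981 in MM1S (median log2 0.35, and 0.38 with 1 gene at the counting floor set to its bound or left out, against 0.04 over all genes), which is 83.3% called against 49.0%. In MM1R 6 rose and 2 fell (median log2 0.15), and the 44.4% called was below the 53.4% of all genes. The ones that fell in both lines included MYC (log2 −0.68 and −0.56, adjusted p = 4.45e-08 and 5.38e-07), a growth regulator, and BIRC5, the mitotic and survival protein survivin (log2 −1.24 and −0.96, adjusted p = 6.96e-10 and 1.18e-08). IRF1, an interferon regulatory factor, rose in both (log2 0.64 and 0.70, adjusted p = 2.55e-07 and 7.56e-08). With Dex in MM1S 4 rose and 7 fell (61.1% called against 42.3%, median log2 0.04 against 0.01). BCL6, a repressor, went from 2.07 and 1.59 CPM to 31.7 and 28.4 CPM (log2 4.03 ± 0.19, adjusted p = 6.78e-13), and VEGFA, an angiogenic factor, from 80.5 and 73.4 CPM to 15.3 and 15.9 CPM (log2 −2.30 ± 0.13, adjusted p = 3.28e-10). Genes of this list moved in both directions with either drug in MM1S. Fewer of the 18 were called with TAK-981 there without the first vehicle library of that line. The share of all genes called in that fit is not given here.

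Of 44 other insulin and IGF1 pathway genes tested (of 50 listed), 13 rose and 5 fell with Dex in MM1S (median log2 0.06, against 0.01 over all genes). The 40.9% called was near the 42.3% of all genes. PIK3R1, the regulatory subunit of phosphoinositide 3-kinase, went from 60.9 and 61.5 CPM to 128 and 118 CPM (log2 1.01 ± 0.07, adjusted p = 9.92e-10). GRB14, an adaptor that inhibits the insulin receptor, went from 9.77 and 9.79 CPM to 32.0 and 29.8 CPM with Dex (log2 1.66 ± 0.12, adjusted p = 2.01e-09) and fell with TAK-981 to 3.84 and 4.38 CPM (log2 −1.25 ± 0.16, adjusted p = 1.91e-06). With TAK-981 12 rose and 10 fell in MM1S, and 11 rose and 9 fell in MM1R (median log2 0.06 and −0.02). The 22 of 44 called in MM1S was near the 49.0% of all genes, and the 20 of 44 in MM1R, 45.5%, was below the 53.4%. EIF4EBP1, a repressor of translation, fell in both lines (log2 −1.09 ± 0.10 and −0.91 ± 0.09, adjusted p = 7.16e-08 and 2.23e-07).

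Of 19 tested FOXO target genes (of 23 listed), which AKT signalling normally holds down, 11 rose and 2 fell with TAK-981 in MM1S and 13 rose and 0 fell in MM1R (median log2 0.25 and 0.33, against 0.04 and 0.0043 over all genes). The shares that rose were 57.9% and 68.4%, against 25.2% and 25.8% of all genes. TXNIP, an inhibitor of glucose uptake, had 726 and 615 CPM under vehicle and 2324 and 2316 CPM under TAK-981 in MM1S (log2 1.79 ± 0.07, adjusted p = 5.44e-13). FBXO32, a ubiquitin ligase subunit, rose in both lines by 1.63 ± 0.07 (adjusted p = 3.46e-12 and 4.87e-12). With Dex in MM1S 10 rose and 6 fell (84.2% called against 42.3%, median log2 0.23 against 0.01), among the former FBXO32 (log2 2.58 ± 0.07, adjusted p = 4.77e-15) and PIK3IP1, an inhibitor of phosphoinositide 3-kinase (log2 1.93 ± 0.08, adjusted p = 1.24e-12). Of 6 other PIM kinases and PIM substrates, 3 rose and 2 fell with TAK-981 in MM1S, 1 rose and 2 fell in MM1R, and 2 rose and 3 fell with Dex in MM1S. That is 5, 3 and 5 of the 6 called, against 49.0%, 53.4% and 42.3% of all genes, with medians of log2 0.13, −0.00045 and −0.21. With either drug in MM1S, fewer of the 6 were called without the first vehicle library of that line. With TAK-981 in MM1R, fewer were called without either vehicle library of that line. The share of all genes called in these fits is not given here. PIM1, the relative of PIM2, rose with TAK-981 in MM1S (131 and 151 CPM to 203 and 229 CPM, log2 0.62 ± 0.08, adjusted p = 1.99e-06). In MM1R PIM1 was not called with TAK-981 (log2 0.14 ± 0.08, adjusted p = 0.115), and with Dex in MM1S it fell (log2 −0.44 ± 0.08, adjusted p = 0.000150). CDC25A, a cell cycle phosphatase, fell by 1.45 ± 0.09 on the log2 scale with TAK-981 in MM1S (adjusted p = 1.35e-10). With Dex in MM1R, 0 genes of any of the 5 lists were called.

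**Figure D4:**
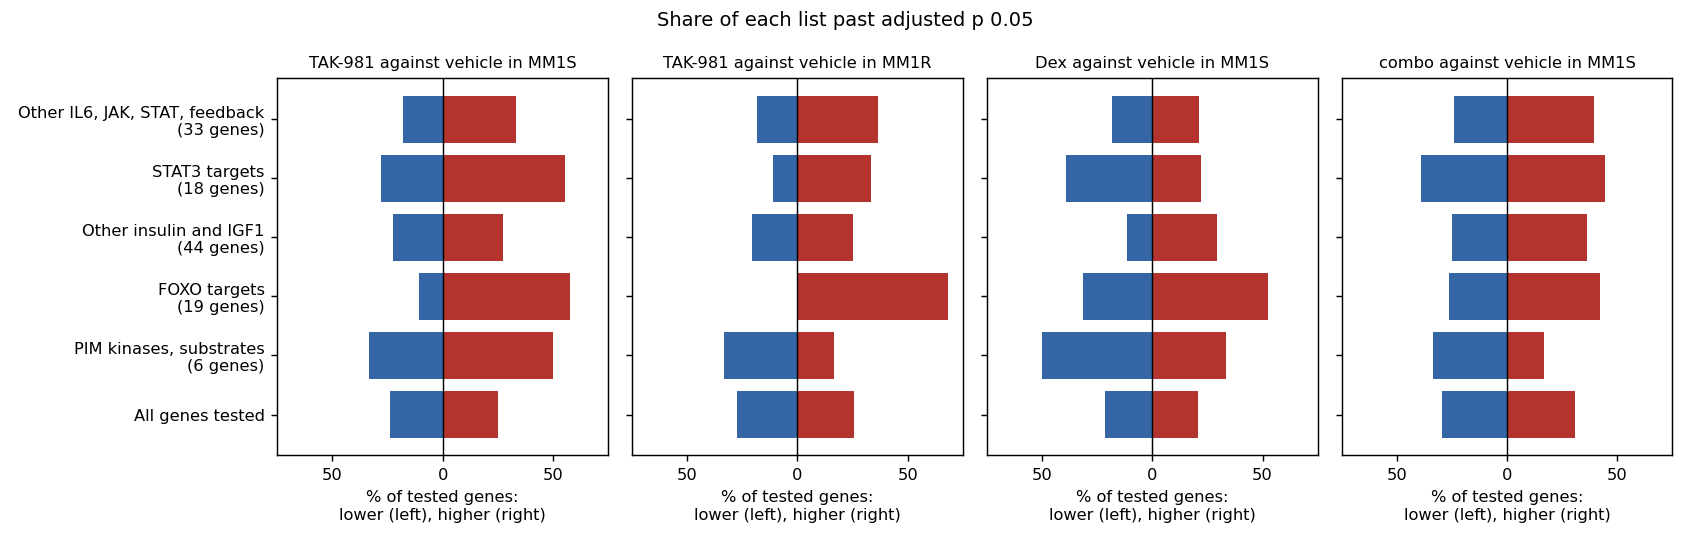
Percent of the tested genes of each of 5 pathway lists that were higher (red, right) or lower (blue, left) at an adjusted p of 0.05 in 4 comparisons, with all genes tested in the lowest bar. FOXO targets show 13 of 19 higher and 0 lower with TAK-981 in MM1R.

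The profiles of the members over the 8 group means of log2 CPM are compared here as a description, over 8 points that share libraries within each group and a common scaling. IL6ST, IGF1R and INSR, each raised by Dex in MM1S alone, had Pearson correlations with one another of 0.95 to 0.97, and PIM2 correlated with IL6ST at −0.40. Among the genes with a mean log2 CPM of at least 3, the profile most like that of IL6ST was that of PAXIP1-AS1 (r = 0.99), followed by MEI1 and TNIK. Among the 3 most like that of INSR were JADE1 and RPARP-AS1 (both r = 0.99), and RPARP-AS1 was first for IGF1R, before CELF1 and TGFBR2. For PIM2 it was NFKB2 (r = 0.99), then GRN and IRF2BP2. The nearest profile was TMCC1 for STAT3 (r = 1.00), CCDC88C for SOCS1 (0.99), ARF3 for IL6R (0.98), LINC00920 for IRS1 (0.99) and C10orf76 for IRS2 (1.00). For SOCS3 it was CCAR1 (r = 0.95), over counts too low to give it weight.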

How the data were processed

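RNA was measured by ribosomal-RNA-depleted total RNA-seq. Per the submitters' processing notes, bcl2fastq 2.18.0.12, STAR 2.6.0, HTSeq 0.6.0, edgeR 3.28.1 and build hg19 were used. The settings, strand included, are not given in the sources used here. The authors deposited whole-number counts per gene and library, used here as deposited. Libraries were matched to groups by the labels.

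The 14215 genes kept by filterByExpr were scaled by TMM and fitted over all 16 libraries with 1 term per group (8 residual degrees of freedom) by edgeR 4.0.16 under R 4.3.3, with a robust quasi-likelihood fit and F test for 15 contrasts. The threshold was a Benjamini-Hochberg adjusted p of 0.05 over all genes tested. Log2 CPM used a prior count of 2, and RPKM the lengths in the table. Standard errors (SE) belong to the fitted log2 changes. Scripts were tested on simulated data. Depth limits precision for SOCS1 and SOCS3.

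The members, the lists and the rules were chosen with earlier results of these data known. List genes named are up to 2 higher and 2 lower per list in the single-drug comparisons, by adjusted p, with an absolute log2 change of at least 0.5 and the mean log2 CPM no less than 1. Per member, they are the 3 genes of most similar profile. NR3C1 and FKBP5 checked the labels. A few genes these rules pick are not reported here.

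Alternatives were RLE scaling, library size only, no filter, a replicate block, DESeq2 1.42.0, a fit of only the groups compared, a minimum absolute log2 change of 1, and each library left out in turn. For lists they were added after seeing the data. With 1 library left in a group, that library was assumed to vary like the others. Promoter windows came from RefSeq (GRCh38.p14), and hg19 positions were not mixed with them.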

Additional observations from a re-analysis of the deposited data

Results flagged for a closer look

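The response to Dex differed between the lines, by the interaction test, for 7 members. On the log2 scale, MM1R minus MM1S, the differences were −1.59 for IL6ST, −1.12 for INSR, −0.97 for SOCS1, −0.87 for IRS1, −0.53 for STAT3, −0.48 for IL6R and −0.46 for IGF1R (adjusted p from 6.55e-08 to 0.00982, edgeR). Each had a positive change in MM1S and none passed the test in MM1R.

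The response to Dex in MM1S also differed with the presence of TAK-981, by the interaction of the drugs, for 4 members. The differences on the log2 scale were −0.61 for IRS1, −0.59 for PIM2, −0.53 for IL6R and −0.45 for STAT3 (adjusted p from 0.000332 to 0.00125, edgeR). With 2 libraries per group, no single library could be tested for standing apart.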

How the results depend on the processing

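The fit called 72 member changes over the 15 contrasts. Of 764 values of these under the alternatives 733 stayed past the threshold, 31 did not, and 0 changed sign; 26 of the 31 came from leaving out a library, 3 from DESeq2, and 2 were PIM2 between combo and Dex in MM1S (RLE scaling, and only the groups compared). Beyond those named above, calls lost without 1 library were IRS1 for combo against TAK-981 in MM1S (second TAK-981 or second combo library), and IL6R (second Dex or either combo library) and IRS2 (first Dex library) for combo against Dex in MM1R. Calls gained without 1 library included IGF1R for combo against Dex without the second combo library, SOCS3 for combo against TAK-981 without the second TAK-981 library, both in MM1S, and IRS2 between the lines without the first MM1S vehicle library. Scaling shifted the median of all genes by under 0.1.

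With an absolute log2 change of at least 1 also required, the members called were 0 for TAK-981, 3 for Dex and 3 for combo against vehicle in MM1S, 2 for combo against TAK-981 and 1 for combo against Dex in MM1S, 1 each for TAK-981 against vehicle, combo against vehicle and combo against Dex in MM1R, 0 between the lines under vehicle, 2 for the line by Dex and 0 for the drug interaction in MM1S. The share of all genes tested that met this limit is not given here, so these counts describe the members only.

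Same-numbered libraries deviated together only weakly (r = 0.02 to 0.26 in MM1S, −0.01 to 0.08 in MM1R), so the numbers were not taken to pair them. A replicate block lost none of the 72 calls and added some: 7 members in place of 5 for TAK-981 in MM1S (IL6ST and INSR), 9 in place of 8 for Dex in MM1S (PIM2), 7 in place of 6 for combo against Dex in MM1S (IGF1R), 7 in place of 5 between the lines under vehicle (IRS2 and PIM2), 8 in place of 7 in the line by Dex interaction (IRS2), 6 in place of 4 in the drug interaction in MM1S (INSR and IRS2) and 2 in place of 0 in the line by TAK-981 interaction (IL6R and INSR). Over all 14215 genes tested the block also raised the number called in each of these comparisons. In the same order it went from 6960 to 7830, 6017 to 7022, 6765 to 7699, 6850 to 7877, 3993 to 5215, 2125 to 3579 and 592 to 2061.

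A fit of only the groups compared called 8 in place of 17 IL6 pathway genes and 13 in place of 22 insulin pathway genes with TAK-981 in MM1S, and 13 in place of 8 STAT3 targets in MM1R. For the 6 PIM genes it called 3 in place of 5 in MM1S and 5 in place of 3 in MM1R. The calls over all genes moved the same way with TAK-981. They were 5215 in place of 6960 in MM1S and 9198 in place of 7592 in MM1R. The filter on low counts was applied anew in this fit, so the genes tested may differ. The cause of these shifts was not tested. SOCS3 was limited by its 2 to 17 counts.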

Other observations

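Under vehicle, the FOXO target list stood lower in MM1R than in MM1S: 13 of the 19 genes tested were lower and 2 higher by the edgeR test (median log2 −0.31, against 0.01 over all genes), where 22.6% of all genes tested were lower. Of all genes tested 25.6% were higher and 48.2% called either way. Of the 33 other IL6 family receptor, JAK, STAT and feedback genes 6 were higher and 10 lower, and the 48.5% called was near the share of all genes. Of the 44 other insulin and IGF1 pathway genes 17 were higher and 12 lower (65.9% called). Of the 6 PIM genes 4 were higher and 0 lower (66.7% called). Of the 18 STAT3 target genes 5 were higher and 2 lower, and the 38.9% called was below the share of all genes.

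With the combo in MM1S, GAB1 had 699 and 652 CPM, above its 450 and 374 CPM with Dex and 312 and 240 CPM with TAK-981. BCL6 had 13.3 and 16.8 CPM with the combo, below its 31.7 and 28.4 CPM with Dex alone. IGFBP3, a secreted protein that binds IGF1, had 32.3 and 26.6 CPM under vehicle, 50.4 and 42.8 CPM with TAK-981, 51.8 and 49.9 CPM with Dex and 34.1 and 37.0 CPM with the combo, a log2 difference of −1.17 ± 0.13 from the sum of both drugs (adjusted p = 8.44e-06 by edgeR). In MM1R IGFBP3 had 80.0 and 83.3 CPM under vehicle and 128 and 120 CPM with the combo. These 3 genes were chosen after their values were seen.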
